A study of Mus musculus with 6 samples.

Results

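The genes described here encode the kinases, cyclins, kinesins and kinetochore proteins that carry a cell through mitosis. They were taken from a list of 45 mouse genes. Probe sets annotated to a listed symbol and to no other gene were found for 44 of them, out of 18193 genes with such a probe set, and the brightest of them on average stands for the gene. Ccnb1 was not analysed here. Expression was measured with Affymetrix mouse arrays in pancreatic tumour cells of C57BL/6 mice at 11 weeks of age, 1 array per sample. Of the 6 samples, 3 carried the genotype wt for Msi1, which encodes the RNA-binding protein Musashi 1, and 3 were Msi1 -/-, called Msi1-null below. Both groups shared the tumour alleles, among them those the labels write as p53f/f and ptf1a-Cre. These are a conditional p53 allele and a Cre recombinase under control of Ptf1a, a gene of pancreatic progenitor and acinar cells. Cre of this kind acts in the pancreatic epithelial lineage, so stromal and immune cells in a preparation keep the unrecombined p53 allele. How many animals gave the samples is not stated in the labels, and p-values therefore measure the spread between these samples.

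Entry into mitosis is driven by Cdk1 bound to A- and B-type cyclins, supported by the Polo and Aurora kinases. Kinesin motors and microtubule-binding proteins build the spindle, kinetochores attach chromosomes to it, and the spindle checkpoint holds back the anaphase promoting complex until every chromosome is attached. Cyclin and securin destruction then allows the sister chromatids to separate and the cell to divide. Most of these genes are transcribed late in the cell cycle and are low in resting cells, so their transcripts are widely read as a measure of dividing cells. In RNA from a whole cell preparation, a change in the share of dividing cells and a change in transcript per cell cannot be told apart.

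The late timing of these genes is classically tied to a pair of promoter elements, the CCAAT box bound by NF-Y and the cell cycle genes homology region, or CHR, bound by the MuvB complexes DREAM and B-Myb-MuvB. Promoters from RefSeq (GRCm38.p6) matched 39 of the 45 listed genes, in 42 windows of 300 bases that ran from 250 bases before to 50 bases after the transcription start. The core CHR motif TTTGAA, or TTCAAA for the opposite strand, was found in 31 of the 42 windows, or 73.8%, against 17.9% of all 32851 windows of the same length. Within 50 bases of the start site the shares were 69% and 4.94%, a distance chosen after the positions were seen. CCAAT, searched with its complement ATTGG, was also found in 31 windows, or 73.8%, against 37.4% of all windows. At least 2 CCAAT matches were present in 52.4% of the members' windows and 11.7% of all windows. Windows holding both TTTGAA and CCAAT made up 61.9% of those of the mitotic genes and 6.95% of all. A related hexamer, TTTAAA, which reads the same on both strands, was found in 21.4% and 13.2%. No TTTGAA match overlapped a TTTAAA match, and 1 of the 42 windows had a TTTGAA match overlapping a CCAAT match. These are letter matches and were not tested for binding.

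Stretches of 6 promoters, from 150 bases before to 30 bases after the start, show how the motifs lie. They were taken from the genes that the results below give in full, Cdk1, Plk1, Cdc20, Cenpa and Top2a for layouts with CCAAT boxes and TTTGAA or TTTAAA, and Cks2 because it has CCAAT boxes without a CHR motif and a small difference between the genotypes. Bub1 and Nek2 also have CCAAT boxes without TTTGAA or TTTAAA. Their log2 differences between the genotypes, given below, were 0.62 and 0.46, so Cks2 does not stand for such promoters. Capitals mark CCAAT boxes, the CHR core and its TTTAAA variant on either strand, and each sequence reads 5′ to 3′ along its gene. The positions are chr10:69352883-69353062 (minus strand), chr7:122159285-122159464 (plus strand), chr4:118437314-118437493 (minus strand), chr5:30666736-30666915 (plus strand), chr11:99024160-99024339 (minus strand) and chr13:51645082-51645261 (plus strand), all in GRCm38.p6.
Cdk1: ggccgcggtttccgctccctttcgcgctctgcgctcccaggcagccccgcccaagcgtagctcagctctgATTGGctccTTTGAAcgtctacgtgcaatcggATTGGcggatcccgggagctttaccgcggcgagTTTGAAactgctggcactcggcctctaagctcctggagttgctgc
Plk1: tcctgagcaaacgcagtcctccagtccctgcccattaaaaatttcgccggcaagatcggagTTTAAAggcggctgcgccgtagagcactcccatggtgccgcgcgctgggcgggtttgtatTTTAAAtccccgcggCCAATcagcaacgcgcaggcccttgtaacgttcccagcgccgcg
Cdc20: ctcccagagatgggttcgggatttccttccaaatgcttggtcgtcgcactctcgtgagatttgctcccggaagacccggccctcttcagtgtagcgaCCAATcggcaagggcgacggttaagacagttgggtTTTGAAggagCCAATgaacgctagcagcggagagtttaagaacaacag
Cenpa: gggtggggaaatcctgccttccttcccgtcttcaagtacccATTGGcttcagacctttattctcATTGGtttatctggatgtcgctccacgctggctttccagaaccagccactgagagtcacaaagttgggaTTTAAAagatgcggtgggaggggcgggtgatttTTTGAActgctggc
Top2a: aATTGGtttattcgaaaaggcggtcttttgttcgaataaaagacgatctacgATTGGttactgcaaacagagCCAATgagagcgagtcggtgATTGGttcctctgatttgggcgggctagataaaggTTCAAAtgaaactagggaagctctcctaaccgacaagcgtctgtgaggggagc
Cks2: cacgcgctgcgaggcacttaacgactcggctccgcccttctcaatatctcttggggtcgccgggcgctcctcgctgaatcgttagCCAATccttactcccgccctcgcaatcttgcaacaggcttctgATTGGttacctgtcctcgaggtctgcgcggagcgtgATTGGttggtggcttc
In Cdk1 the CCAAT matches begin at -80 and -48 and the CHR motifs at -71 and -15, counted from the start site. Cdc20 has its CHR motif at -18, flanked by CCAAT boxes at -53 and -8. Top2a carries 4 CCAAT matches in this stretch, at -149, -98, -78 and -58, ahead of a CHR motif at -23. Plk1 has TTTAAA at -89 and -29 beside a CCAAT box at -14, and a TTTGAA match at 31, just past the stretch shown. In Cenpa, CCAAT boxes at -109 and -86 lie upstream of TTTAAA at -17 and TTTGAA at 17. Cks2 shows CCAAT matches at -65, -22 and 15.

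**Figure D1:**
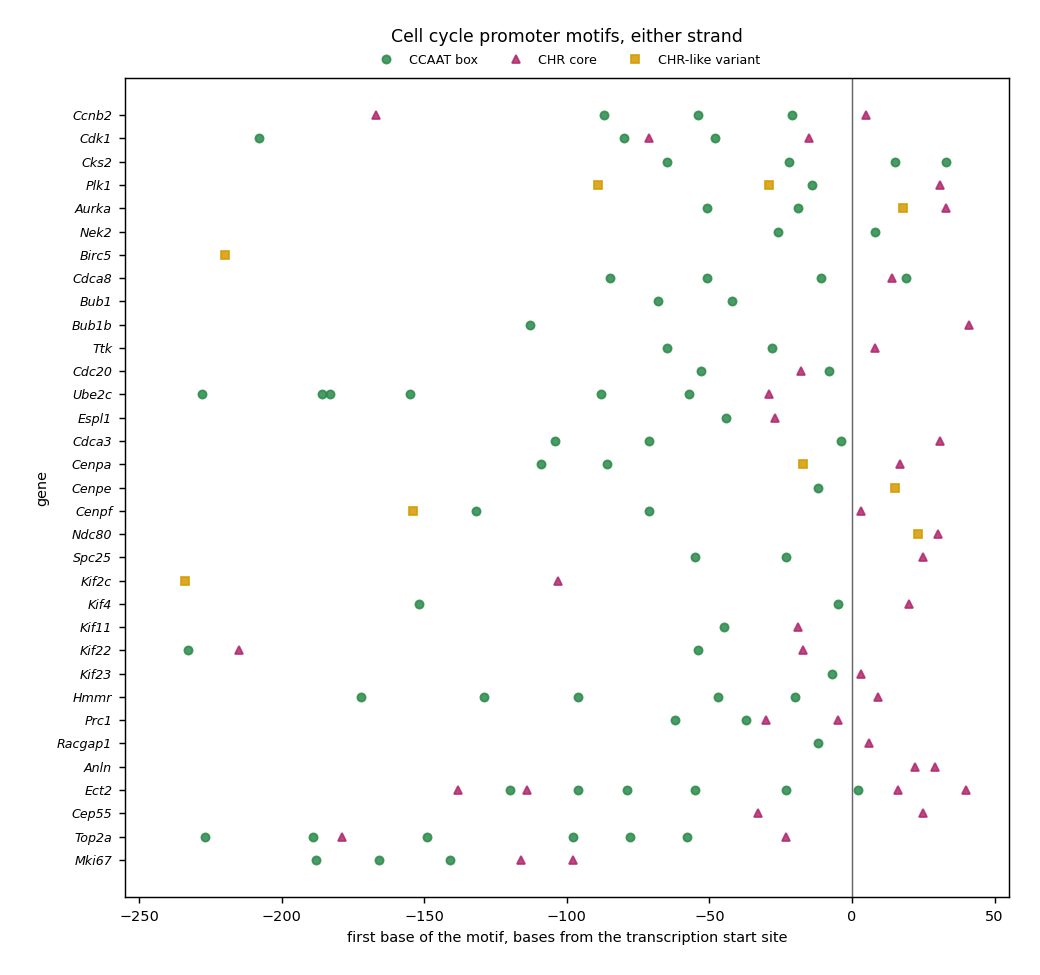
Position of CCAAT boxes (circles), the CHR core TTTGAA (triangles) and the variant TTTAAA (squares) in the promoters of the measured mitotic genes that hold any of them. The horizontal axis is the first base of each match in bases from the transcription start, on either strand, with both windows of Ect2, Prc1 and Cep55 drawn together. CHR cores gather near the start site, with 69% of the members' windows holding one within 50 bases of it, and CCAAT boxes lie mostly upstream of them.

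Across the series, median intensity lay between 159.2 and 164.3 in the 6 arrays. Of the 3 Msi1 probe sets 2 were above background in no array and the third in 2 arrays, with log2 differences from -0.29 to 0.09, and their place relative to the deleted part is not known here, so that they are no check of the genotypes. Wild-type replicate 3 also stood apart in sex-linked transcripts, with Xist at 6226 and the Y-linked Eif2s3y at 88.2, against 131 to 387 and 716 to 944 in the other 5 arrays.

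The comparison asked whether transcripts of the mitotic machinery differ between tumours with and without Msi1. All 44 genes had a higher mean in the Msi1-null arrays, whereas 50.2% of all 18193 genes did. Their log2 differences, Msi1-null minus wild-type on the log2(intensity + 1) scale, ran from 0.15 to 1.03 with a median of 0.48, against a median of 0.001 over all genes. The 3 Msi1-null values lay above the 3 wild-type values, without overlap, for 23 of the 44 genes (52.3%), while this held for 4% of all genes. At an unadjusted p under 0.05 in limma, 32 of the 44 were higher in the Msi1-null arrays (72.7%), against 1.6% of all genes. None passed after adjustment over all 45037 probe sets, where 0 probe sets (0%) had an adjusted p under 0.05 and 1355 (3.01%) an unadjusted one (limma, Benjamini-Hochberg), and every member had the same adjusted p of 0.9997. The 20 ways of dividing 6 arrays into 3 and 3 allow an exact two-sided permutation p no smaller than 0.1, and that value was reached by the 23 genes without overlap. The 44 genes also rose and fell together over the arrays, as described below, so these counts are not independent observations. What follows gives intensities and differences, and no single gene is called changed.

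**Figure D2:**
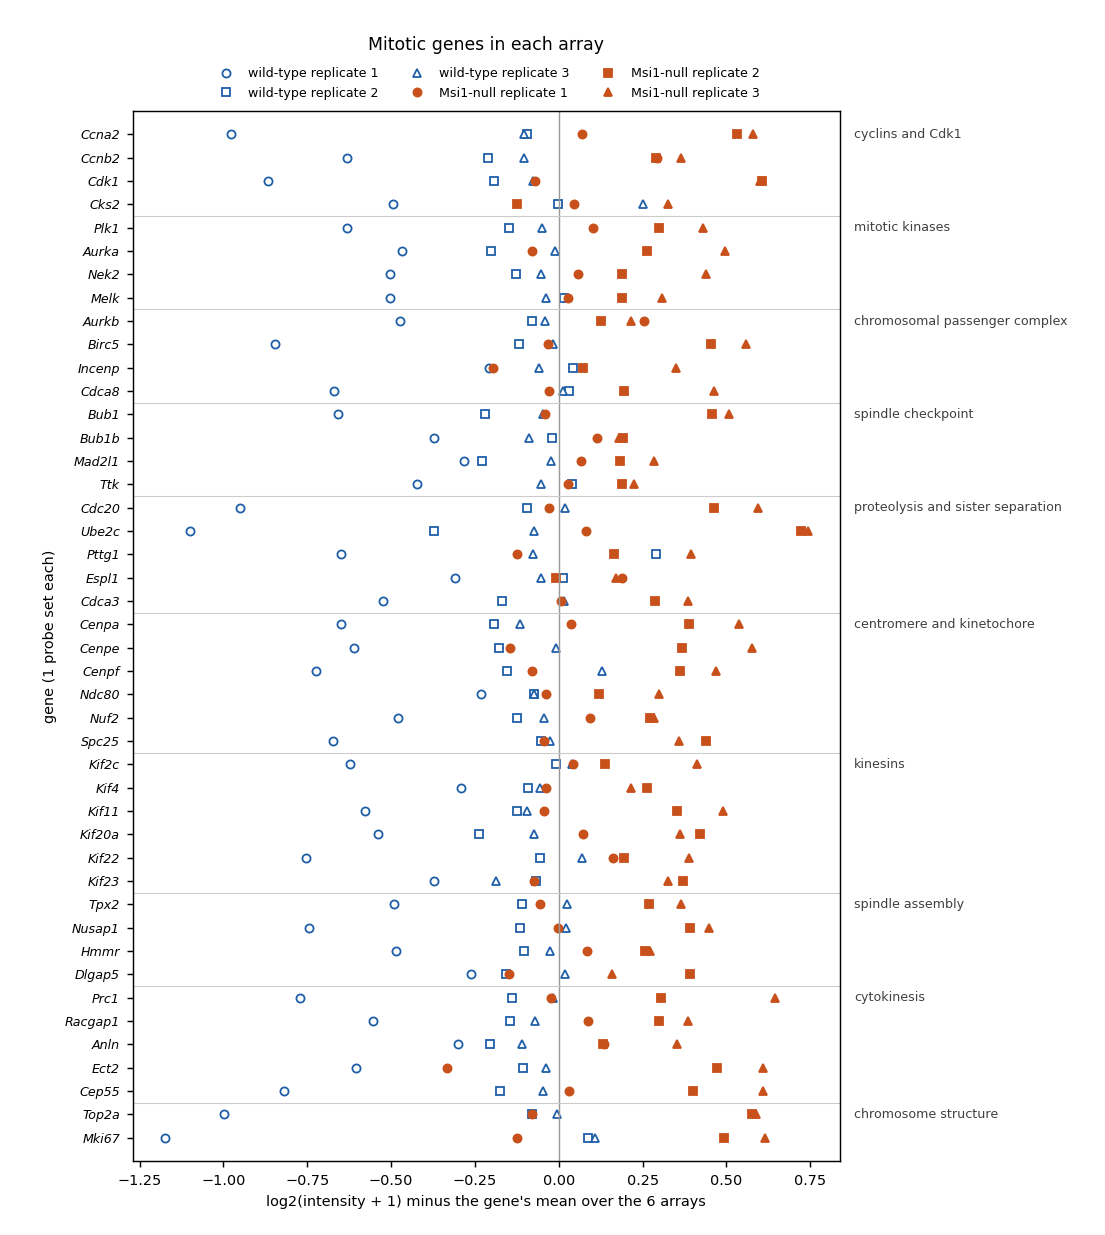
Values of the 44 mitotic genes in each array, as log2(intensity + 1) minus the gene's mean over the 6 arrays, with genes in rows by role, open blue symbols for wild-type and filled orange symbols for Msi1-null arrays. Wild-type replicate 1 is the lowest array for all 44 genes, and Msi1-null replicates 2 and 3 lie to the right of all wild-type arrays for 41 of them.

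Cyclins and their kinase showed some of the widest gaps. Cdk1, the kinase that drives entry into mitosis, read 423, 675 and 733 in wild-type replicates 1, 2 and 3 and 735, 1177 and 1172 in the Msi1-null replicates. The groups did not overlap, although Msi1-null replicate 1 lay just above wild-type replicate 3, and the log2 difference was 0.76 ± 0.26 (SE). Ccna2, the A-type cyclin of S and G2 phase, gave intensities of 253, 467 and 464 in wild-type against 524, 721 and 747 in the Msi1-null arrays, again without overlap, and a log2 difference of 0.79 ± 0.26 (SE). For the B-type cyclin gene Ccnb2 the groups were also apart and the Msi1-null values close together, at 340.0 ± 62.5 (SD, n = 3) for wild-type against 521 ± 15 (SD, n = 3) for Msi1-null, with a log2 difference of 0.63 ± 0.14 (SE). Cks2, a small subunit of cyclin-dependent kinases, did not separate the groups. Its intensities were 930.2, 1309 and 1562 in wild-type arrays and 1354, 1202 and 1644 in the Msi1-null arrays, and Msi1-null replicates 1 and 2 lay below wild-type replicate 3. The log2 difference of 0.16 ± 0.21 (SE) for Cks2 was smaller than its error, and it was -0.043 without wild-type replicate 1.

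Among the mitotic kinases, Plk1, the Polo kinase of centrosome maturation and mitotic exit, had intensities of 186, 261 and 279 in wild-type arrays and 310.1, 356 and 389 in the Msi1-null arrays. Its groups were apart, with a log2 difference of 0.55 ± 0.17 (SE). Melk, a kinase of the AMPK family with high transcript levels in proliferating cells, measured 220.4, 316 and 304 in wild-type against 319, 356 and 388 in Msi1-null samples. The lowest Msi1-null value of Melk exceeded the highest wild-type value by a narrow margin, and its log2 difference was 0.35 ± 0.15 (SE). Nek2, a kinase of centrosome separation, differed by 0.46 ± 0.15 (SE) on the log2 scale without overlap, and Aurka, the Aurora kinase of spindle poles, by 0.45 ± 0.17 (SE) with overlap.

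The chromosomal passenger complex joins Aurora B to Incenp, survivin and borealin and corrects faulty attachments. Birc5, which encodes survivin, read 286, 474 and 508 in wild-type arrays and 503, 704 and 758 in the Msi1-null arrays. Here Msi1-null replicate 1 lay within the wild-type range, and the log2 difference was 0.66 ± 0.25 (SE). Incenp, the scaffold of the complex, had the smallest difference of all 44 genes. Its intensities were 587, 699 and 651 in wild-type arrays and 593, 713 and 865 in the Msi1-null arrays, which overlapped, for a log2 difference of 0.15 ± 0.16 (SE). Aurkb, the kinase itself, differed by 0.40 ± 0.12 (SE) on the log2 scale, and its Msi1-null values were without overlap with the wild-type ones and close together, at 172 ± 27.3 (SD, n = 3) for wild-type against 225 ± 10.1 (SD, n = 3) for Msi1-null. For Cdca8, borealin, the log2 difference was 0.42 ± 0.21 (SE) and the groups overlapped.

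The spindle checkpoint genes separated the genotypes in 3 of 4 cases, where 4% of all genes did so in this direction. Mad2l1, whose protein Mad2 inhibits Cdc20 at unattached kinetochores, measured 393, 409 and 472 in the wild-type replicates and 502, 543 and 583 in the Msi1-null replicates. Bub1b, the checkpoint protein BubR1, measured 248, 317 and 302 in wild-type against 349, 367 and 364 in Msi1-null samples. Neither gene overlapped between the groups, and the log2 differences were 0.35 ± 0.11 (SE) for Mad2l1 and 0.32 ± 0.11 (SE) for Bub1b. Bub1, the kinase that marks the inner centromere, had the largest difference of the checkpoint genes at 0.62 ± 0.20 (SE), also without overlap. Ttk, the kinase Mps1, differed by 0.29 ± 0.12 (SE) with overlapping groups, and only 2 of its 6 values lay above the array background given below.

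Genes of mitotic proteolysis and sister chromatid separation included both the largest difference and some of the smallest. Ube2c, the ubiquitin-conjugating enzyme that works with the anaphase promoting complex, read 288, 477 and 587 in wild-type arrays and 654, 1019 and 1035 in the Msi1-null arrays. Its groups were apart and the log2 difference of 1.03 ± 0.29 (SE), a 2.04-fold ratio of geometric means, was the largest of the 44. Cdc20, the activator of the complex, gave 361, 654 and 708 in wild-type against 685, 965 and 1057 in Msi1-null samples. Msi1-null replicate 1 of Cdc20 lay between wild-type replicates 2 and 3, and the log2 difference was 0.69 ± 0.28 (SE). Pttg1, which encodes securin, the inhibitor of separase, had intensities of 893, 1713 and 1329 in wild-type against 1284, 1572 and 1842 in Msi1-null samples. Wild-type replicate 2 of Pttg1 was above Msi1-null replicates 1 and 2, and its log2 difference of 0.29 ± 0.25 (SE) was 0.038 without wild-type replicate 1. Espl1, separase itself, measured 313, 393 and 375 in wild-type against 444, 387 and 438 in Msi1-null samples, with overlap and a log2 difference of 0.23 ± 0.12 (SE). Cdca3, an F-box protein of mitotic entry, differed by 0.45 ± 0.17 (SE) and overlapped as well.

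At centromeres and kinetochores all 6 genes had higher means in the Msi1-null arrays, against 50.2% of all genes, and 3 were higher without overlap, against 4%. Cenpa, the histone H3 variant that defines the centromere, measured 293, 403 and 425 in wild-type arrays and 472, 603 and 669 in the Msi1-null arrays. Spc25, a subunit of the Ndc80 complex that binds microtubules, measured 197, 303 and 309 in wild-type against 304, 426 and 403 in Msi1-null samples. Cenpa separated the genotypes, with a log2 difference of 0.64 ± 0.18 (SE), whereas Msi1-null replicate 1 of Spc25 lay between wild-type replicates 2 and 3 and its log2 difference was 0.50 ± 0.20 (SE). The other subunits of the same complex, Nuf2 and Ndc80, differed by 0.43 ± 0.12 and 0.25 ± 0.094 (SE) on the log2 scale, both without overlap, but just 1 of the 6 Ndc80 values was above background. Cenpe, a kinetochore kinesin, and Cenpf, a large kinetochore protein, differed by 0.53 ± 0.21 and 0.50 ± 0.23 (SE) and overlapped.

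Of the 6 mitotic kinesins 5 separated the genotypes, against 4% of all genes, and Kif2c did so by less than 1 intensity unit, with 236.27 in Msi1-null replicate 1 and 235.93 in wild-type replicate 3. Another Kif2c probe set, above background in all 6 arrays, overlapped between the groups, with a log2 difference of 0.020 ± 0.069 (SE). Kif22, a chromosome arm motor, read 575, 933 and 1017 in wild-type arrays and 1086, 1110.1 and 1269 in the Msi1-null arrays. Kif23, the motor of the centralspindlin complex, read 368, 454 and 419 in wild-type against 453, 617 and 598 in Msi1-null samples. The Kif22 groups were apart, with a log2 difference of 0.49 ± 0.21 (SE), and Kif23 was the exception among the kinesins, with Msi1-null replicate 1 just under wild-type replicate 2 and a log2 difference of 0.42 ± 0.15 (SE). Kif20a, a motor of the central spindle, and Kif11, which pushes spindle poles apart, differed by 0.57 ± 0.14 and 0.53 ± 0.17 (SE). Kif2c, which depolymerises microtubules at centromeres, and Kif4, a motor of chromosome arms and midzone, differed by 0.39 ± 0.19 and 0.29 ± 0.10 (SE).

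The 4 spindle assembly genes had differences near the middle of the range. Nusap1, a microtubule-bundling protein, measured 192, 296 and 327 in wild-type arrays and 321, 422 and 439.6 in the Msi1-null arrays, and the log2 difference was 0.56 ± 0.21 (SE) with overlap through Msi1-null replicate 1. Hmmr, a spindle pole protein and hyaluronan receptor, had 183, 239 and 252 in wild-type against 272, 307 and 310.1 in Msi1-null samples. It was the 1 gene of the 4 whose groups did not overlap, at a log2 difference of 0.41 ± 0.13 (SE). Tpx2, the activator of Aurora A, and Dlgap5, a microtubule stabiliser near chromosomes, differed by 0.39 ± 0.16 and 0.27 ± 0.14 (SE).

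For cytokinesis, Anln encodes anillin, a scaffold of the contractile ring, with intensities of 323, 346 and 369.5 in wild-type arrays and 438, 437 and 509 in the Msi1-null arrays. Prc1, which bundles microtubules in the midzone, had 224, 348 and 379 in wild-type against 377, 474 and 599 in Msi1-null samples. The Anln groups were apart with a log2 difference of 0.41 ± 0.10 (SE), while Prc1, at 0.62 ± 0.24 (SE), had a wider spread and overlapped by Msi1-null replicate 1. Cep55, a protein of the midbody, and Racgap1, the partner of Kif23, differed by 0.69 ± 0.23 and 0.51 ± 0.15 (SE) without overlap. Ect2, the exchange factor that activates RhoA at the cleavage site, differed by 0.50 ± 0.26 (SE). Its Msi1-null replicate 1, at 302, lay below wild-type replicates 2 and 3, at 353 and 369.8.

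Of the chromosome structure genes, Top2a, the topoisomerase that untangles sister chromatids, read 361, 682 and 719 in wild-type arrays and 682, 1075 and 1084 in the Msi1-null arrays. Mki67, the surface coat protein of mitotic chromosomes used as a proliferation marker in pathology, read 284, 683 and 693 in wild-type against 589.6, 905 and 985 in Msi1-null samples. Both had a very low wild-type replicate 1 and a Msi1-null replicate 1 within or below the other wild-type values, so neither separated the groups. The log2 differences were 0.72 ± 0.30 (SE) for Top2a and 0.65 ± 0.36 (SE) for Mki67, and the latter was 0.23 without wild-type replicate 1.

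**Figure D3:**
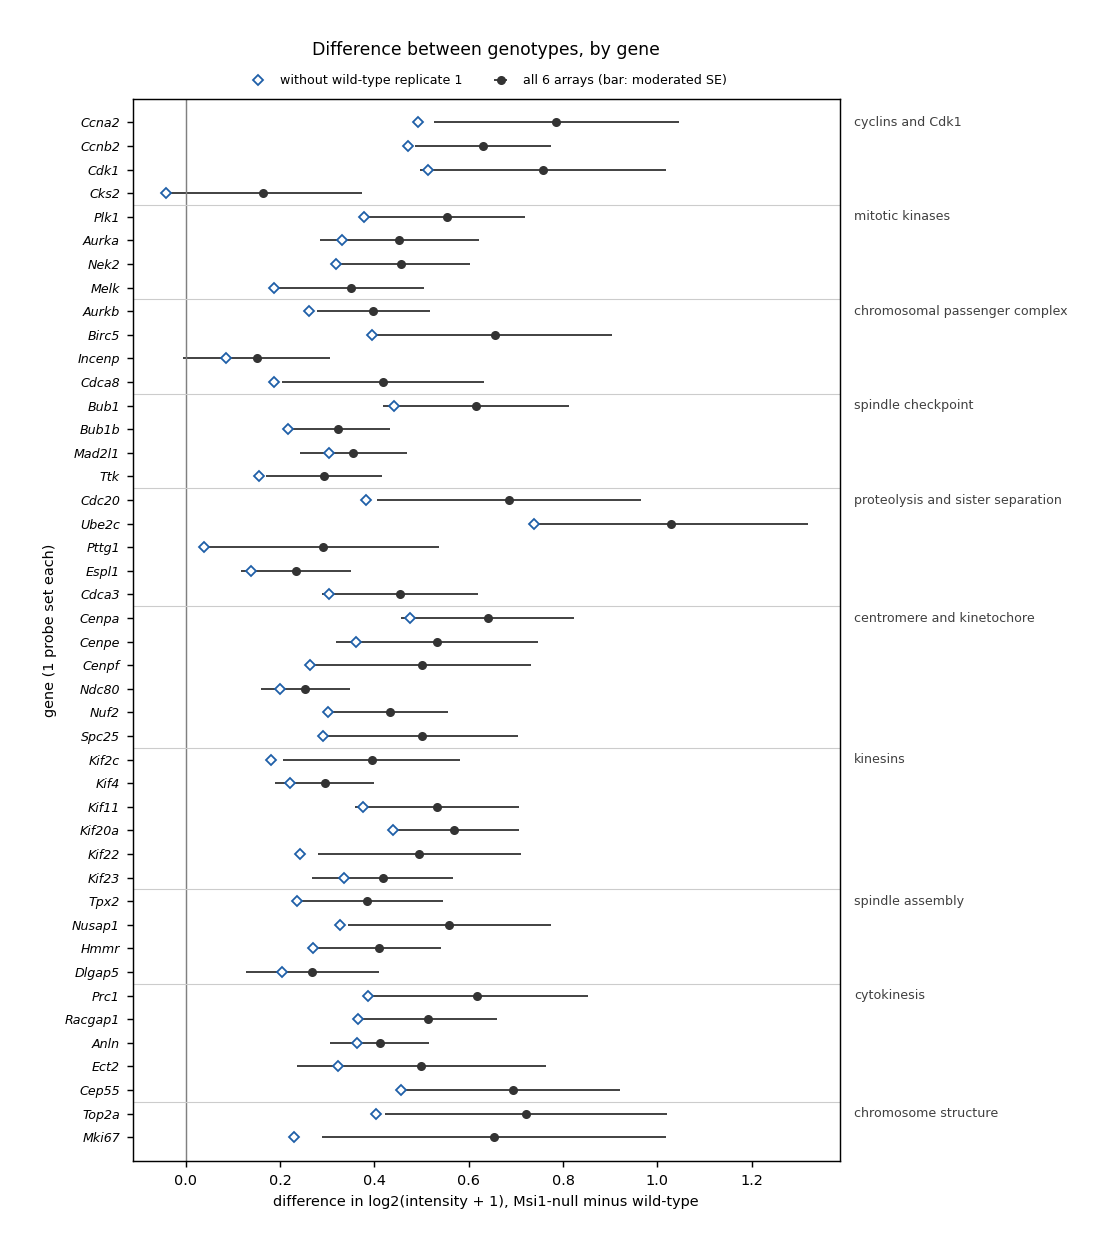
Difference between the genotypes for each of the 44 genes, as Msi1-null minus wild-type log2(intensity + 1), with filled points and bars for the value and moderated SE over all 6 arrays and open diamonds for the value without wild-type replicate 1. All filled points lie above 0, from 0.15 for Incenp to 1.03 for Ube2c, and 43 of the 44 diamonds do, Cks2 being the exception.

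The arrays were ordered in nearly the same way gene after gene. Wild-type replicate 1 was the lowest of the 6 arrays for 44 of 44 mitotic genes, against 17.9% of all genes. Msi1-null replicate 3 was the highest for 35 of them (79.5%), against 13.7% of all genes. Averaged over the 44 genes, the log2 deviation from the mean of the 6 arrays was -0.60, -0.10 and -0.029 in wild-type replicates 1, 2 and 3 and 0.006, 0.30 and 0.42 in Msi1-null replicates 1, 2 and 3. Msi1-null replicate 1 was therefore closer to wild-type replicates 2 and 3 than to the other Msi1-null arrays. It also stood apart over all genes, as the lowest array for 25.7% and the highest for 25.3% of them, more than any other array. Of the 21 genes that overlapped, 20 did so through Msi1-null replicate 1, which for 18 of them was the only Msi1-null array not above every wild-type array. The exception was Espl1, through Msi1-null replicate 2, while Cks2 and Pttg1 overlapped through both.

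Single arrays set the size of the difference. Without wild-type replicate 1 the median log2 difference over the 44 genes was 0.31, 43 genes still had a higher mean in the Msi1-null arrays, and 22 differences were smaller by more than 1.5 times. The 23 genes without overlap were the same, since that array was the lowest for every gene, against 8.08% of all genes in such a comparison. Leaving out wild-type replicate 2 or 3 gave 26 and 35 genes without overlap, where all genes reached 8.49% and 7.13%, and the latter gave the largest median, 0.59. Without Msi1-null replicate 1 the median was 0.58 and 41 genes did not overlap, against 12.9% of all genes. Without Msi1-null replicate 2 or 3 there were 24 and 23 such genes, against 7.87% and 9.28%. The count at an unadjusted p under 0.05 moved more. It was 14 without wild-type replicate 1 (0.764% of all genes), 15 without Msi1-null replicate 2 (1.23%) and 10 without Msi1-null replicate 3 (1.71%), in place of 32. Without wild-type replicate 2, wild-type replicate 3 or Msi1-null replicate 1 it was 29, 33 and 36, beside 1.8%, 1.15% and 3.93% of all genes.

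By role, the median log2 difference was highest for the 4 genes of cyclins and Cdk1, at 0.69, and for chromosome structure, at 0.69 over 2 genes. It was 0.51 for cytokinesis, 0.50 for centromere and kinetochore, 0.46 for kinesins, 0.46 for mitotic kinases and 0.45 for proteolysis and sister separation. The chromosomal passenger complex, at 0.41, spindle assembly, at 0.40, and the spindle checkpoint, at 0.34, had the smaller medians. Without wild-type replicate 1 these medians lay between 0.22 for the passenger complex and 0.48 for the cyclins and Cdk1, and that of chromosome structure was 0.32. Such differences between roles rest on a few genes each and were not tested. Members with a TTTGAA motif had a median log2 difference of 0.50 over 28 genes, and those with a promoter window but no such motif 0.445 over 10 genes, and the ranges of 0.23 to 1.03 and 0.16 to 0.66 overlapped.

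Brightness limits part of this picture. As array background served the signal under which 95 percent of 81 receptor probe sets of the olfactory, vomeronasal and trace amine families lay, between 162.9 and 191.4. All 6 values lay above it for 31 of the 44 genes, and between 1 and 5 values did for the other 13, among them 4 of the 6 kinesins and 3 of the 6 centromere and kinetochore genes. Another 54 probe sets measured 30 of the genes. Of these, 48 had a higher mean in the Msi1-null arrays and 6 a lower one, and the 6 belonged to Aurka, Cdca3, Cenpa, Incenp and Tpx2 and were never above background. In all, 32 of the 54 were above background in no array, these 6 and many of the higher ones among them. Nothing is read from the direction of those 32. The 12 further probe sets above background in all arrays all had higher means in the Msi1-null arrays, such as further probe sets of Ccna2 and Cks2, with log2 differences of 0.62 and 0.28. The smallest of the 12 was 0.020, for Kif2c. The probe sets that stand for Aurkb, Cdc20, Incenp, Kif2c and Kif22 (suffix x) and for Nek2, Cdca8, Pttg1 and Prc1 (suffix s) carry marks by which Affymetrix denotes probes that can also match other transcripts. With all probe sets of a gene averaged, the median log2 difference of the 44 genes was 0.32.

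Other genes of cell division, listed by function, gave smaller median differences. The 44 genes and these lists were chosen with earlier results of these data known, and the contrast between them was not tested. For comparison, 50.2% of all genes had a higher mean in the Msi1-null arrays and 4% were higher without overlap. Spindle kinesins and microtubule factors outside the 44 had higher means in the Msi1-null arrays for 17 of 20 genes, with a median log2 difference of 0.26 and 6 genes without overlap. Ckap2, a spindle-associated protein, differed most, by 0.49 ± 0.17 (SE), while the abundant tubulin binder Stmn1 and the pole protein Numa1 differed by -0.039 ± 0.095 and -0.093 ± 0.14 (SE). Among other kinetochore and centromere genes, 28 of 34 had higher means, the median was 0.094 and 7 did not overlap. That median was 0.059 without wild-type replicate 1 and 0.16 without Msi1-null replicate 1. Sgo1, shugoshin, which protects centromeric cohesion, differed by 0.42 ± 0.17 (SE), the checkpoint protein gene Bub3 by -0.008 ± 0.098 (SE) and the kinetochore gene Zwint by 0.070 ± 0.14 (SE). Condensin and cohesin genes had a median of 0.12 (0.22, 0.071 and 0.072 without Msi1-null replicate 1, 2 or 3 and 0.045 with probe sets averaged) over 17 genes, with the condensin subunit Ncapd2 at 0.45 ± 0.23 (SE) and the cohesin subunits Rad21 and Stag2 at 0.076 ± 0.11 and -0.047 ± 0.12 (SE). Replication genes, which act earlier in the cycle, were higher on average for 23 of 25 genes, with a median of 0.16, which was 0.10 without wild-type replicate 1 and 0.25 without Msi1-null replicate 1. Rrm2, a subunit of ribonucleotide reductase, differed by 0.71 ± 0.35 (SE), Pcna, the sliding clamp of replication, by 0.19 ± 0.10 (SE) and the helicase subunit Mcm7 by 0.16 ± 0.19 (SE).

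The other lists had medians nearer to 0. The anaphase promoting complex and its partners had a median log2 difference of 0.026 over 16 genes. Within it, Fbxo5, the inhibitor Emi1, and Ube2s, the chain-extending enzyme, differed by 0.40 ± 0.10 and 0.30 ± 0.11 (SE) without overlap, and the subunit Anapc5 by -0.074 ± 0.083 (SE) with overlap. Regulators of mitotic entry and exit had a median of 0.034 over 19 genes, and the mitotic kinase gene Pbk differed by 0.74 ± 0.28 (SE) without overlap. The phosphatase subunits Ppp2r1a and Ppp1cc differed by -0.043 ± 0.082 and -0.12 ± 0.096 (SE). The 15 genes of the MuvB, DREAM and B-Myb complexes and NF-Y had a median of -0.002. Mybl2, which encodes B-Myb, and Foxm1, both named after their values were seen, were above background in no array, and nothing is read from their differences. Tfdp1, the partner of E2F factors, had the largest difference among them at 0.18 ± 0.14 (SE). Rbbp4, a histone-binding subunit of MuvB, differed by -0.069 ± 0.089 (SE). Transport kinesins of interphase cells, with an accessory subunit among them, had lower means in the Msi1-null arrays for 15 of 21 genes. Their median was -0.079, with Kif5b at 0.017 ± 0.10, Kif1c at -0.18 ± 0.12 and Kif5c at -0.47 ± 0.20 (SE). At an unadjusted p under 0.05 in limma, 18 of the 167 genes in the 8 lists were higher in the Msi1-null arrays, against 1.6% of all genes. Another 3 of the 167 were lower, against 1.85% of all genes. Among all genes 4.28% had Msi1-null values wholly below the wild-type ones, and no mitotic gene did. All 6 values were above background for 10 of the 20 other spindle genes, 17 of the 34 other kinetochore genes and 21 of the 25 replication genes. None of the listed genes passed in limma after adjustment over all probe sets.

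**Figure D4:**
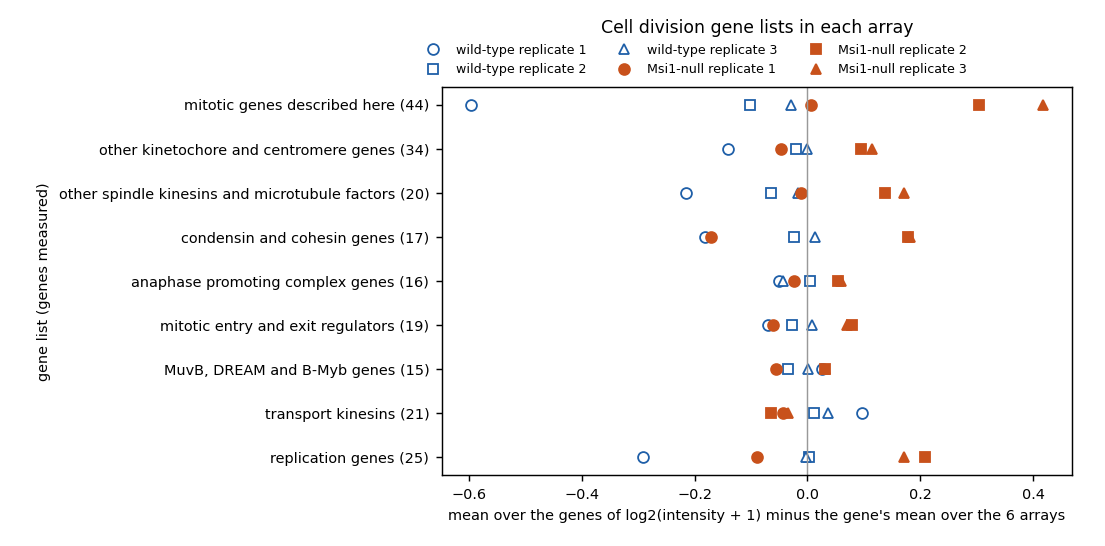
Mean deviation of the 44 mitotic genes and of 8 other cell division lists in each array, as log2(intensity + 1) minus each gene's mean over the 6 arrays, with the number of genes measured in brackets, open symbols for wild-type and filled symbols for Msi1-null arrays. The mitotic genes range from -0.60 in wild-type replicate 1 to 0.42 in Msi1-null replicate 3, while the transport kinesins range from -0.065 in Msi1-null replicate 2 to 0.10 in wild-type replicate 1.

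The labelled cell type was set against markers. Signals of ductal epithelium were present, with 10 of 10 markers above background in all arrays, and so were those of fibroblasts, macrophages and endothelium, each with 10 of 10, so the RNA held transcripts of stromal and immune cells. Summed intensities of the ductal markers were 54290 to 62025 in wild-type and 50853 to 70683 in the Msi1-null arrays, which overlapped. Markers of T and NK cells, B and plasma cells and endothelium differed mostly the same way as the mitotic genes. Those of T and NK cells had higher means in the Msi1-null arrays for 11 of 11 genes, with sums of 1649 to 1996 in wild-type and 2070 to 2761 in the Msi1-null arrays, although only 2 markers were above background in all arrays and Cd247 and Gzmb in none. B and plasma cell markers had higher means for 8 of 9 genes, with a median log2 difference of 0.34, although 2 of the 9 were above background in all arrays. Their summed intensities, in which Jchain was the largest term, overlapped, at 7186 to 9070 in wild-type against 5807 to 12472 in Msi1-null samples. Endothelial markers had higher means for 9 of 10 genes, with a median of 0.25 and sums of 6761 to 8879 against 7247 to 11092. Macrophage and neutrophil markers had higher means for 8 of 10 and 7 of 9 genes, with smaller medians of 0.076 and 0.081. Acinar markers had higher means for 1 of 12 genes and a median log2 difference of -1.42. Their sums did not overlap, at 42439 to 66806 in wild-type and 14246 to 40570 in the Msi1-null arrays. Sums for fibroblasts, macrophages, neutrophils, adipocytes and erythroid cells overlapped between the genotypes. Mpo, Pax5, Lep and Hba-a1 among the markers were above background in no array. For RNA quality, the 3′ over 5′ signal ratio of Gapdh was 1.55 to 1.86 in wild-type and 1.38 to 1.61 in the Msi1-null arrays (exact two-sided permutation p = 0.3). The part of these cell types and of RNA quality in the mitotic gene differences was not tested.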

How the data were processed

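RNA of 6 samples, 3 per genotype, was labelled as biotinylated cRNA from 6 ug of total RNA and read on 1 array each. The deposited values are linear intensities per probe set, made by the authors with GCRMA per the submitters' processing notes. How they were scaled after GCRMA, and its version, are not given in the sources used here. Of 45101 probe sets, 64 controls were removed, and the other 45037 were tested as log2(intensity + 1) in R 4.3.3, where limma 3.58.1 (lmFit, then eBayes with an intensity trend) gave p-values that were adjusted by Benjamini-Hochberg over all probe sets at 0.05. The fit was tested on simulated data. Gene names came from the platform annotation, in which 34945 probe sets had 1 symbol, 932 several and 9160 were not listed. 34741 probe sets were matched by Entrez number to RefSeq GRCm38.p6, and 0 symbols were updated. Exact two-sided permutation tests over arrays were used for single values. Values of all 6 arrays were given for the 2 brightest genes of each role and for the 3 largest and 3 lowest differences, and of each other list the 2 brightest genes and the largest difference were named. The member genes and all lists were chosen with earlier results of these data known. Replicate numbers were shared by the genotypes, and alternatives covered filters, pseudocount, normalization, array weights, the replicate block, averaging of probe sets and leaving out each array. The number of arrays limits the precision. A further allele that both groups carry is not reported here.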

Additional observations from a re-analysis of the deposited data

How the results depend on the processing

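The direction of the mitotic gene differences was the same in 689 of 690 single-gene values recomputed under the alternatives. The exception was Cks2, at -0.043 on the log2 scale without wild-type replicate 1 and up to 0.33 without another array. The filters, the replicate block and a fit without the intensity trend cannot change a gene's difference. Their values among the 690 therefore had to agree and say nothing about stability. The median log2 difference of 0.48 ranged from 0.31 to 0.59 when each array was left out in turn and from 0.32 to 0.50 under the other alternatives. The count without overlap, 23, ranged from 23 to 41 with an array left out and was 14 of 30 with a filter at a mean log2 value of 8 and 30 of 44 with median centring. The count at an unadjusted p under 0.05 in limma, 32, ranged from 10 to 36 with an array left out and was 17 of 30 under the same filter and 40 of 44 with the replicate number as a block. Over all probe sets, 1355 had an unadjusted p under 0.05. That count was 546 with the filter at 8, 2153 with array weights and 2120 with the replicate number as a block, and 886 to 2723 with an array left out. After adjustment 0 passed, with 0 to 1 when an array was left out. The 1 probe set, for the immunoglobulin gene Ighm, passed without Msi1-null replicate 1 and is no mitotic gene. The median for other spindle kinesins and microtubule factors, 0.26, was 0.13 with the filter at 8, 0.11 with probe sets averaged and 0.15 to 0.285 with an array left out. That for mitotic entry and exit regulators, 0.034, was -0.029 with the filter at 8. For transport kinesins, at -0.079, it was -0.11 with a filter at 7, -0.18 at 8 and -0.043 with probe sets averaged, and -0.12 to -0.037 with an array left out. The cause of these shifts was not tested, beyond the fewer genes or arrays that a filter or a left-out array leaves. Same-numbered arrays of the genotypes had deviations correlated at 0.10, -0.12 and 0.31, so the numbers were not taken as pairs, and not every array correlated best with its own number. Under the block 0 probe sets passed after adjustment and the median of the mitotic genes was 0.48, a value that the block cannot change. The precision is limited by the 3 arrays per genotype, and 13 of the 44 genes were at background in at least 1 array. With all 6 arrays no difference passed adjustment, including that of Ube2c, 1.03 on the log2 scale and the largest of the 44.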
